A study of Homo sapiens with 6 samples.

Results

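The enzymes described here are the cytochrome P450s (CYP), UDP-glucuronosyltransferases (UGT), sulfotransferases (SULT) and glutathione S-transferases (GST) that oxidise and conjugate drugs, hormones, bile acids and lipids. The rule for members reads gene symbols and no measured value: symbols that start with CYP and a digit, then UGT1A, UGT2, SULT and the GSTA, GSTK, GSTM, GSTO, GSTP and GSTT classes. Of 37822 genes in the table, 101 were members, made up of 52 P450s, 9 UGT1A genes, 10 UGT2 genes, 13 SULTs and 17 GSTs. Symbols of pseudogenes and antisense genes, CYP51A1, CYP1A1, CYP1A2 and CYP1B1 were left out. GSTP1 ends in the same letters as a pseudogene symbol and was kept, because the rule names its family. CYP2D7 and GSTT2 were kept by their symbols, although GENCODE v29 types them as polymorphic pseudogenes. Messenger RNA was measured by RNA-seq in 6 libraries of Huh7, an established human hepatocellular carcinoma line. In 3 libraries the cells carried a FLAG control lentivirus on a genotype given as WT (FLAG), and in 3 they overexpressed VPS72 (VPS72). VPS72 is a subunit of chromatin remodelling complexes that handle a variant of histone H2A. All cells grew in DMEM with fetal bovine serum and met virus made in HEK293T cells, which stayed in the medium for 24 h. Whether the replicates are separate cultures is not in the labels, and the p-values therefore cover the spread among these libraries only, which may be technical. All libraries come from 1 tumour line, and the labels give no time from infection to RNA extraction.

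P450s are heme enzymes that insert oxygen into lipophilic substrates, with electrons from P450 reductase in the endoplasmic reticulum or from ferredoxin in mitochondria. The conjugating families then attach a polar group: UGTs use UDP-glucuronate, SULTs use the sulfate donor PAPS, and GSTs use glutathione. The liver is the main site of this chemistry, and nuclear receptors and hepatocyte transcription factors set the expression of many of these genes. Hepatoma lines are known for low levels of many drug-metabolising P450s and for keeping some fetal forms.

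Total estimated counts ran from 21345279 to 29091824 per library. VPS72 itself had 686, 544 and 511 counts in the FLAG libraries and 33086, 30972 and 27483 in the VPS72 libraries, a log2 fold change of 5.60 ± 0.06 (SE) with an adjusted p of 1.85e-18 in edgeR. The 7 liver and Huh7 markers were all present. Their summed level was 9220 to 9440 CPM (read counts scaled to a common library size) in FLAG and 10500 to 10800 CPM in VPS72. Of the 7, 4 had an adjusted p under 0.05 in edgeR's test, where 0.617% of all tested genes did. Of the 5 markers of HEK293T, the line that made the virus, only NEFL was at 0 in every library. Among the 5, 1 reached 10 counts in a library, and it did not pass the test. Fibroblast markers summed to 10.1 to 11.3 against 10.1 to 10.6 CPM, immune markers to 10.8 to 12.5 against 13.6 to 14.5 CPM, and endothelial markers to 2.79 to 4.55 against 4.13 to 4.94 CPM. Most immune marker counts were those of LYZ, with 270, 312 and 217 in FLAG and 364, 365 and 312 in VPS72. PTPRC, CD3E and MS4A1 had at most 5 counts in any library. None of the fibroblast, immune and endothelial markers passed the test, and the part of any marker list in the results below was not tested. These are bulk libraries, in which fewer cells of a kind and less RNA per cell cannot be told apart.

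GSTP1 and SULT1C4 were the most abundant of the enzyme genes in Huh7 cells. Of the 101 members, 50 had enough counts to be tested and 51 did not, and 14 of the 51 were at 0 in every library. Per kilobase of transcript, the FLAG libraries held 389.6 ± 11.6 CPM of GSTP1 (SD, n = 3) and 154 ± 6.05 CPM of SULT1C4. GSTO1 followed at 84.6 ± 1.71 and GSTK1 at 80.3 ± 5.79 CPM per kilobase, and the GSTO1 mean lay within the spread of GSTK1. CYP20A1, at 45.4 ± 2.32 CPM per kilobase, was the most abundant P450, ahead of CYP26B1 at 16.7 ± 0.67, and UGT2B4 was the most abundant UGT at 32.9 ± 0.911. GSTs made up 45.2% of all member counts, P450s 24.1%, SULTs 23.9% and UGTs 6.76%.

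**Figure D1:**
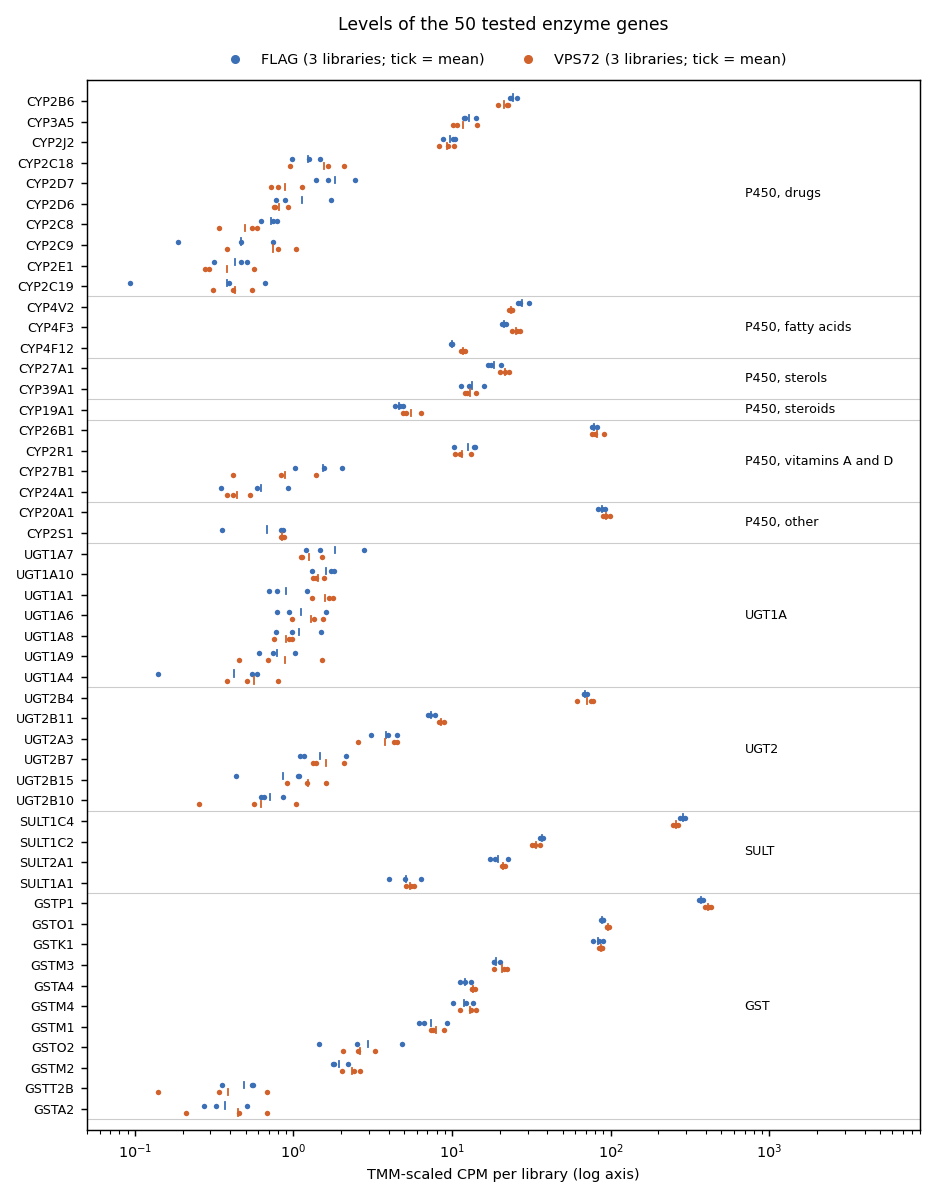
Level of each of the 50 tested enzyme genes in every library, in TMM-scaled CPM on a log axis. Points are libraries, ticks are group means, and genes are ordered by role and level; GSTP1 and SULT1C4 lie farthest to the right, while most UGT1A and CYP2C genes lie near or below 2 CPM. Levels on this axis are not divided by transcript length.

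No member passed the test between VPS72 and FLAG libraries. By edgeR's quasi-likelihood test with Benjamini-Hochberg adjustment over all 14253 tested genes, 0 of 50 members had an adjusted p under 0.05, where 0.617% of all tested genes did (0.421% higher and 0.196% lower). The smallest adjusted p among members was 0.124, for GSTP1. At an unadjusted p under 0.05 there were 9 members, or 18.0%, against 11.5% of all tested genes. DESeq2, the other count model, called 2 members, GSTP1 as higher (adjusted p 0.0133) and SULT1C4 as lower (adjusted p 0.0201). It called 249 genes in all and gave no adjusted p to many less abundant members, among them CYP4F3, CYP4V2, CYP27A1 and UGT1A1. Those members could not be called by it. limma-voom called 0 members.

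Of the 50 tested members, 29 had a positive and 21 a negative log2 fold change, so 58.0% were positive, against 48.8% of all tested genes. Their median log2 fold change was 0.09, beside -0.0038 for all tested genes. The members' median was 0.005 without FLAG replicate 2, 0.036 without FLAG replicate 3 and 0.046 without VPS72 replicate 2. In 14 members, or 28%, the 3 libraries of one group all lay on the same side of the other 3, against 17.2% of all tested genes. VPS72 libraries were the higher in 8 of these (GSTP1, GSTO1, GSTA4, CYP4F3, CYP4F12, CYP19A1, UGT1A1 and UGT2B11; 8.76% of all genes) and the lower in 6 (SULT1C4, SULT1C2, CYP2D7, CYP4V2, CYP2B6 and CYP2C8; 8.47% of all genes). An exact permutation test of 3 against 3 libraries cannot give a two-sided p below 0.1.

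**Figure D2:**
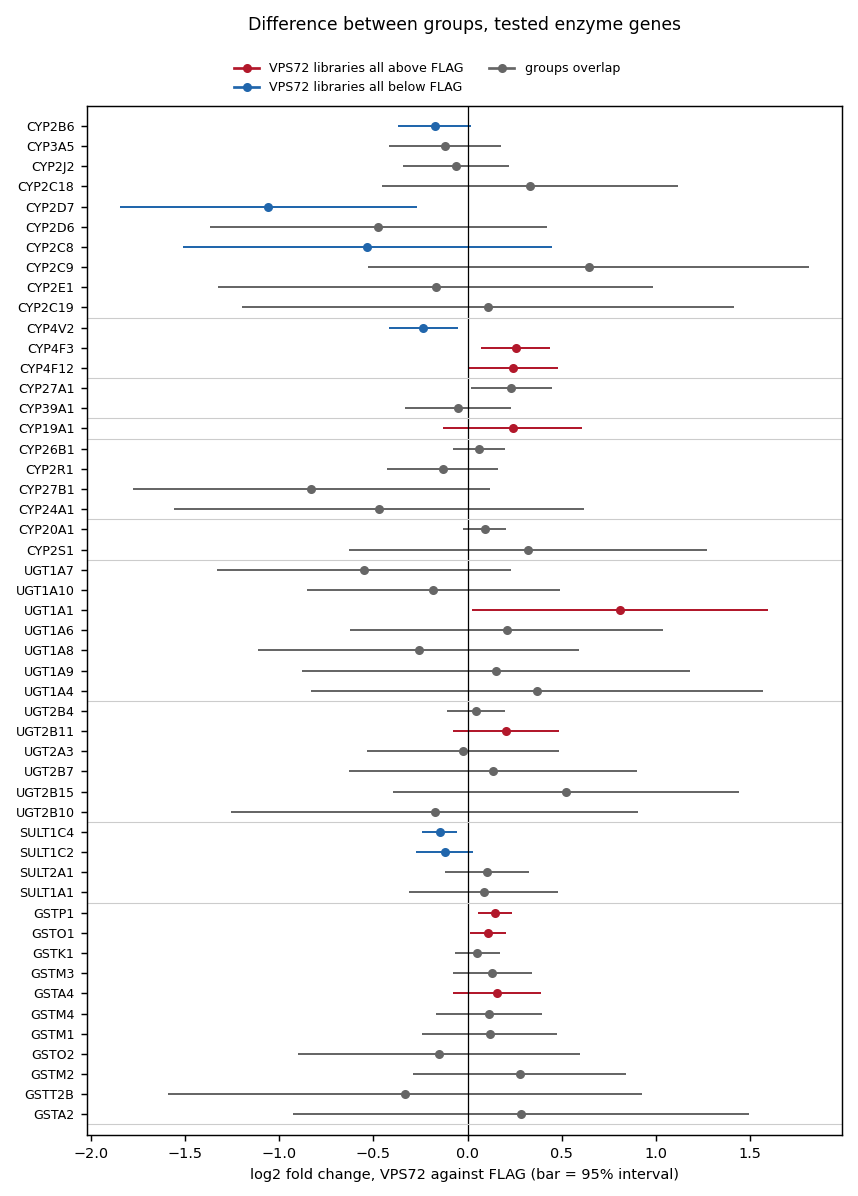
Difference between VPS72 and FLAG libraries for each tested enzyme gene, as log2 fold change with its 95% interval from edgeR. Red genes have all VPS72 libraries above all FLAG libraries, blue genes the reverse, and grey genes overlap; no gene passed an adjusted p of 0.05.

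Among the conjugating enzymes, GSTs gave the largest share of RNA. GSTP1, the pi-class enzyme that joins glutathione to electrophiles, was at 362, 378 and 383 CPM in the FLAG libraries and at 432, 417 and 394 CPM in the VPS72 libraries. The groups did not overlap, and the gap between the highest FLAG and the lowest VPS72 library was smaller than the range inside either group. Its mean was 374 ± 11.1 against 414 ± 19.2 CPM (SD, n = 3), a log2 fold change of 0.15 ± 0.04 (95% interval 0.06 to 0.23; 4.39% to 17.3% higher) with an adjusted p of 0.124 in edgeR. With a smooth trend of the log ratio with abundance removed, the log2 fold change was 0.098 (adjusted p 0.366 in edgeR). Without FLAG replicate 1 it was 0.123 (adjusted p 0.434 in edgeR).

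The GSTP1 promoter is shown because this gene was the most abundant member and had the smallest p. The window comes from the RefSeq promoter table (GRCh38.p14), where chr11:67583735-67583764 lies on the plus strand, and capitals mark TGACTCA, the letters bound by AP-1 factors, which start 66 bases before the gene's start. The sequence is given 5′ to 3′ on the gene's strand.
GSTP1 promoter: ggccggcgccgTGACTCAgcactggggcgg
TGACTCA or its reverse complement TGAGTCA was found in the 250 bases before the start in 1476 of 35116 promoter entries (4.2%), and in 3 of 91 member entries (3.3%), which belong to GSTP1 and CYP19A1.

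GSTO1, the omega-class enzyme that reduces dehydroascorbate and arsenic compounds, was at 86.9, 90.2 and 89.8 CPM in FLAG and at 94.8, 98.5 and 94.3 CPM in VPS72. Every VPS72 library was above every FLAG library. Its log2 fold change was 0.11 ± 0.04, with an adjusted p of 0.336 in edgeR. GSTK1, the kappa-class enzyme of mitochondria and peroxisomes, overlapped between groups at 83.9 ± 6.05 against 86.9 ± 2.04 CPM, with a log2 fold change of 0.05 ± 0.05. GSTM3, a mu-class enzyme, was at 18.9 ± 0.923 against 20.6 ± 2.01 CPM and also overlapped. GSTA4, which clears aldehydes made by lipid peroxidation, was at 12.1, 11.2 and 13.2 CPM in FLAG and 14.0, 13.3 and 13.3 CPM in VPS72, with no overlap and a log2 fold change of 0.16 ± 0.11. Of the 11 tested GSTs, 9 had a log2 fold change above 0, GSTO2 and GSTT2B were below 0, and the median was 0.12. The sum over all GSTs was 582, 608 and 622 CPM in FLAG and 677, 667 and 630.2 CPM in VPS72, without overlap; GSTP1 supplied most of it.

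The 2 abundant SULT1C genes were both lower in the VPS72 libraries, without passing the test. SULT1C4, a sulfotransferase for phenolic compounds known for expression in the fetus, was at 288, 296 and 274 CPM in FLAG and at 249, 259 and 266 CPM in VPS72. The ranges were separate. Its mean was 286 ± 11.3 against 258 ± 8.70 CPM, a log2 fold change of -0.15 ± 0.04 (95% interval -0.23 to -0.06; -15% to -4.14%) with an adjusted p of 0.132 in edgeR.

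The SULT1C4 promoter is shown as that of the member with the second smallest p. The window is chr2:108377896-108377925 of GRCh38.p14, plus strand, from the RefSeq promoter table, and capitals mark TGACGTCA, the palindromic cyclic AMP response element, which starts 47 bases before the gene's start.
SULT1C4 promoter: cgcctctgctgTGACGTCAcagcctggtga
This element was found in 578 of 35116 promoter entries (1.65%) and in 1 of 91 member entries (1.1%), that of SULT1C4. A match describes the letters in the window and says nothing of binding.

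SULT1C2, its neighbour in the family, was at 36.1, 36.6 and 37.5 CPM in FLAG and at 33.6, 35.8 and 31.8 CPM in VPS72. The groups did not overlap, and the log2 fold change was -0.12 ± 0.07 (-0.08 without VPS72 replicate 3) with an adjusted p of 0.544 in edgeR. SULT2A1, which sulfates dehydroepiandrosterone and bile acids, was at 22.7, 17.3 and 18.6 CPM in FLAG and at 21.5, 20.9 and 20.6 CPM in VPS72. These ranges overlapped, and the log2 fold change was 0.10 ± 0.10, or 0.02 without FLAG replicate 2 and 0.23 without FLAG replicate 1. SULT1A1, the main phenol sulfotransferase of adult liver, was at 5.14 ± 1.18 against 5.46 ± 0.338 CPM. Summed over the 3 SULT1C genes, the level was 323 ± 10.8 CPM in FLAG and 292 ± 8.21 CPM in VPS72, and over all SULTs 348 ± 10.4 against 319.5 ± 8.37 CPM, neither with overlap. SULT1C4 supplied most of both sums. Of the 4 tested SULTs, 2 had a positive and 2 a negative log2 fold change.

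**Figure D3:**
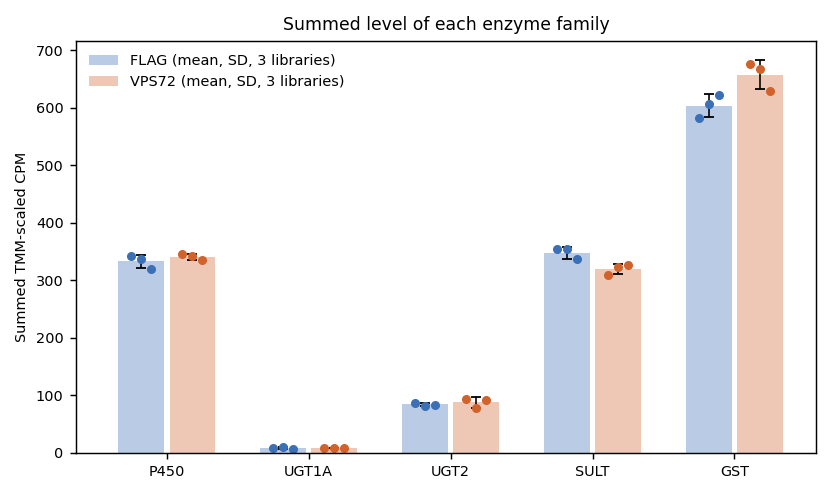
Summed level of the enzyme families in each library, in TMM-scaled CPM, with points for libraries, bars for group means and error bars for the SD (n = 3). GST sums are higher in every VPS72 library than in every FLAG library, SULT sums are lower, and P450 and UGT sums overlap. GSTP1 supplies most of the GST sum and SULT1C4 most of the SULT sum.

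Summed over all 101 members, the level was 1377 ± 12.8 CPM in FLAG and 1414 ± 21.6 CPM in VPS72, and the groups overlapped. The P450 sum overlapped as well, at 333 ± 11.9 against 340.5 ± 5.24 CPM.

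Of the 17 P450s grouped as drug-metabolising, 10 were tested, 3 with a positive and 7 with a negative log2 fold change (median -0.14). CYP2B6, which oxidises bupropion and efavirenz, was at 23.4, 23.6 and 25.6 CPM in FLAG and at 22.5, 19.6 and 22.1 CPM in VPS72. All VPS72 libraries were below the FLAG libraries, by a log2 fold change of -0.18 ± 0.09 (-0.11 without VPS72 replicate 2) with an adjusted p of 0.469 in edgeR. CYP3A5, which shares many drug substrates with CYP3A4, overlapped at 12.8 ± 1.31 against 11.7 ± 2.23 CPM. CYP2J2, an epoxygenase of arachidonic acid, overlapped at 9.78 ± 0.841 against 9.35 ± 1.02 CPM, and CYP2C18 at 1.24 ± 0.253 against 1.56 ± 0.575 CPM.

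CYP2D7, the pseudogene-like neighbour of CYP2D6, had the most negative fold change of any member on few reads. It had 63, 42 and 30 counts in FLAG and 23, 19 and 27 in VPS72. The ranges did not overlap, with a log2 fold change of -1.06 ± 0.37 (95% interval -1.84 to -0.28) and an adjusted p of 0.25 in edgeR. Of the 75-base words in its transcript, 23.1% also occur in other genes, mainly CYP2D6 and CYP2D8P, so the division of reads among them is uncertain. CYP2D6, which oxidises many antidepressants and opioids, had 20, 44 and 19 counts in FLAG and 22, 20 and 22 in VPS72, with 25.8% of words shared.

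None of the 3 tested P450s of fatty acid oxidation passed the test. Their groups did not overlap, as in 17.2% of all tested genes, with VPS72 higher in CYP4F3 and CYP4F12 and lower in CYP4V2. CYP4F3, which inactivates leukotriene B by omega-hydroxylation, was at 20.7, 21.2 and 22 CPM in FLAG and at 26.8, 23.8 and 25.6 CPM in VPS72. Its log2 fold change was 0.26 ± 0.08 (95% interval 0.08 to 0.43), with an adjusted p of 0.209 in edgeR. CYP4F12, a related omega-hydroxylase, was at 9.98, 9.85 and 10.0 CPM in FLAG and at 11.8, 11.4 and 12.1 CPM in VPS72. Its log2 fold change was 0.24 ± 0.11, with an adjusted p of 0.422 in edgeR. CYP4V2, which hydroxylates medium-chain fatty acids, was the reverse, at 30.6, 26.0 and 26.7 CPM in FLAG and 23.9, 22.9 and 24.1 CPM in VPS72. Its log2 fold change was -0.23 ± 0.08, with an adjusted p of 0.27 in edgeR. The other CYP4 genes were at or near 0 counts, among them CYP4A11, the main omega-hydroxylase of liver, with 2 counts over all libraries.

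In bile acid and sterol synthesis, CYP27A1 and CYP39A1 were the 2 tested members of 6. CYP27A1, the mitochondrial hydroxylase of the cholesterol side chain, was at 17.7, 20.5 and 17.0 CPM in FLAG and at 23.0, 20.2 and 21.7 CPM in VPS72. FLAG replicate 2 lay above VPS72 replicate 2, so the groups overlapped, and the log2 fold change was 0.23 ± 0.10 with an adjusted p of 0.359 in edgeR. CYP39A1, an oxysterol hydroxylase, overlapped at 13.4 ± 2.34 against 12.9 ± 1.16 CPM. CYP7A1, the rate-limiting enzyme of bile acid synthesis, had 2 counts in FLAG replicate 3 and none in the other libraries. CYP8B1, which sets the share of cholic acid, had 1 count in FLAG and 2 in VPS72.

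CYP19A1, the aromatase that makes estrogens, was the only tested P450 of steroid hormone synthesis. It was at 4.91, 4.39 and 4.70 CPM in FLAG and at 6.4, 5.15 and 4.94 CPM in VPS72, without overlap. The lowest VPS72 library was close to the highest FLAG library, and the log2 fold change was 0.24 ± 0.17 (0.12 without VPS72 replicate 1) with an adjusted p of 0.649 in edgeR. Its RefSeq promoters are shown because CYP19A1 is known for starting from several alternative promoters, and because 2 of its windows hold the AP-1 letters in capitals. They are chr15:51243946-51243975 and chr15:51288391-51288420 of GRCh38.p14, minus strand.
CYP19A1 nearer window: gcatttaatgaTGACTCActctttcctcac
CYP19A1 farther window: tggagaagctgTGACTCAagtagcagctgt
The 2 windows belong to separate promoter entries, each with its own start, and the farther window lies upstream of the nearer on the gene's strand. The capitals begin 49 bases before the start of that entry in the first and 71 bases in the second. Counts per gene do not tell which start was used.

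Among P450s of vitamins A and D, CYP26B1, which clears retinoic acid, was at 82.4, 77.9 and 76.3 CPM in FLAG and at 76.0, 91.3 and 79.3 CPM in VPS72. The ranges overlapped, and the log2 fold change was 0.06 ± 0.06. CYP2R1, the liver hydroxylase that starts vitamin D activation, overlapped at 12.7 ± 2.12 against 11.6 ± 1.44 CPM. CYP27B1, which makes the active hormone, had 52, 40 and 22 counts in FLAG and 12, 22 and 33 in VPS72, with a log2 fold change of -0.83 ± 0.44 and an adjusted p of 0.504 in edgeR. That value was -0.47 without VPS72 replicate 1 and -1.31 without VPS72 replicate 3. CYP24A1, which degrades the hormone, had 9 to 20 counts per library. CYP20A1, a P450 with no settled substrate, was at 88.5, 92.9 and 83.8 CPM in FLAG and at 99.1, 93.4 and 90.1 CPM in VPS72, a log2 fold change of 0.09 ± 0.05 (0.06 without FLAG replicate 3) with overlap. CYP2S1, mostly known outside the liver, had 9 to 25 counts.

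The UGT1A genes share most of their transcript. Each has its own first exon, and all 9 GENCODE v29 models join it to the same downstream exons, 3 of them coding with identical ends. The start of the first shared exon, exon 2, is printed because reads that lie wholly in it cannot be assigned to a UGT1A gene. It is the first 60 of 132 bases, chr2:233767034-233767093 of GRCh38, plus strand.
UGT1A shared exon 2: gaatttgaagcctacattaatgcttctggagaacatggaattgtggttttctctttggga
Between 58.7% and 67.4% of the 75-base words of each UGT1A transcript occur in other genes, so the split between them rests on the estimate of the counting tool.

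UGT1A1, which conjugates bilirubin, had 18, 31 and 17 counts in FLAG and 48, 47 and 31 in VPS72. The highest FLAG and the lowest VPS72 library had the same count, and after scaling the VPS72 libraries were all above. Its log2 fold change of 0.81 ± 0.37 (95% interval 0.03 to 1.59) was the most positive of any member, with an adjusted p of 0.414 in edgeR. UGT1A7 had 38, 71 and 26 counts in FLAG against 32, 30 and 36, with a log2 fold change of -0.55 ± 0.36 (-0.11 without FLAG replicate 2), and overlapped. UGT1A6, a transferase for small phenols, and UGT1A10 also overlapped, with log2 fold changes of 0.21 ± 0.39 and -0.18 ± 0.31. Leaving out single libraries gave 0.02 (without FLAG replicate 3) to 0.57 (without FLAG replicate 1) for UGT1A6, and -0.31 (without FLAG replicate 3) to -0.09 (without FLAG replicate 2) for UGT1A10. Summed over the 9 genes, which does not depend on the split, there were 206, 259 and 148 counts in FLAG and 246, 213 and 209 in VPS72. That is 8.36 ± 1.66 against 8.48 ± 0.384 CPM, with overlap.

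UGT2B4, which conjugates bile acids, was at 71.4, 67.9 and 68.3 CPM in FLAG and at 77.1, 61.5 and 75.6 CPM in VPS72. VPS72 replicate 2 was the lowest of the 6 libraries, and the log2 fold change was 0.05 ± 0.07. UGT2B11 was at 7.88, 7.10 and 7.30 CPM in FLAG and at 8.45, 8.90 and 8.32 CPM in VPS72, without overlap, with a log2 fold change of 0.20 ± 0.13 and an adjusted p of 0.595 in edgeR. UGT2A3 overlapped at 3.83 ± 0.711 against 3.78 ± 1.08 CPM, as did UGT2B7, the transferase of morphine, at 1.47 ± 0.582 against 1.60 ± 0.421 CPM.

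Many enzymes that define drug metabolism in adult liver were barely detected in either group. CYP3A4, the main drug-oxidising P450 of liver, had 3, 1 and 5 counts in FLAG and 3, 1 and 2 in VPS72. CYP3A7, its fetal counterpart, had 21, 1 and 2 counts against 8, 5 and 6, and shares 75% of its words with other genes. CYP2E1, which oxidises ethanol, had 12, 8 and 11 counts against 8, 15 and 7. It was tested, with a log2 fold change of -0.17 ± 0.54 and an adjusted p of 0.951 in edgeR. CYP2A6, the nicotine oxidase, was at 0 in all 6 libraries, where 3 counts, the limit that a count of 0 allows, correspond to 0.103 CPM in the deepest and 0.141 CPM in the shallowest library. GSTA1, an abundant alpha-class enzyme of liver, had 9, 4 and 3 counts against 1, 0 and 9. The largest count of any untested member was 25. No difference could be detected at this depth for the untested genes.

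**Figure D4:**
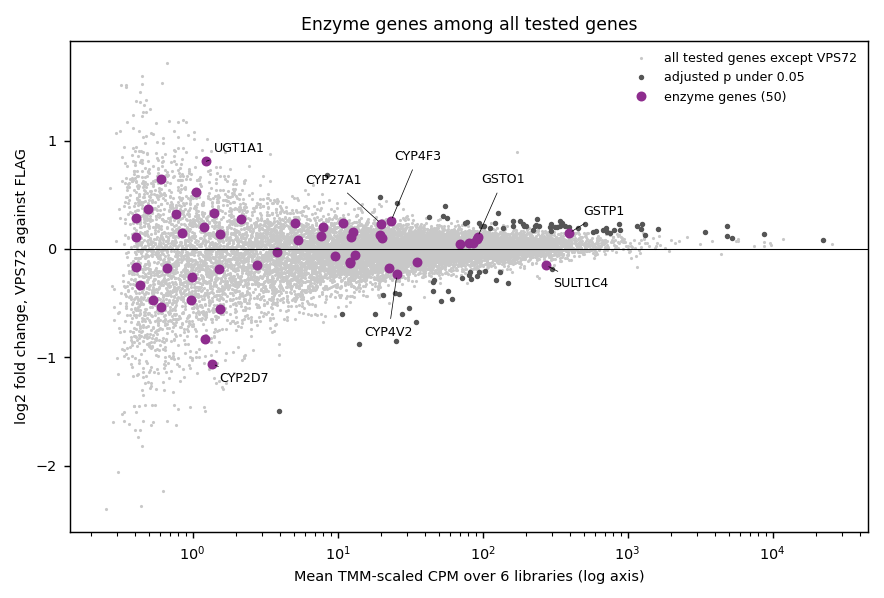
Log2 fold change against mean level (TMM-scaled CPM, log axis) for all tested genes except VPS72, with the 50 enzyme genes in purple and genes past an adjusted p of 0.05 in dark grey. Enzyme genes spread widely below 2 CPM and lie close to 0 above 50 CPM.

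The level of a member set how closely its difference was measured. For the 22 tested members under 2 CPM the median 95% interval reached 0.945 to either side on the log2 scale, a 1.92-fold margin. For the 7 members at 50 CPM or more it reached 0.109, a 1.08-fold margin. The intervals of 25 of the 50 tested members lay wholly within a 1.5-fold change in either direction, and those of 30 within a 2-fold change. For the other 20 a 2-fold difference lay inside the interval. Across all tested genes, 1.62% passed the test at 50 CPM or more and 0.0% under 2 CPM.

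Genes that supply or act beside these enzymes were read from 7 lists of 115 entries, of which 100 were tested. Only ALDH1A1 passed, and 99 did not. ALDH1A1, the cytosolic aldehyde dehydrogenase that makes retinoic acid, was at 643, 628 and 631 CPM in FLAG and at 722, 711 and 716 CPM in VPS72. It rose by a log2 fold change of 0.18 ± 0.03, with an adjusted p of 0.00745 in edgeR. The adjusted p was 0.107 once a smooth trend of the log ratio with abundance was removed, at a log2 fold change of 0.11. In that list of other oxidising and hydrolysing enzymes 1 of 18 tested genes was higher and none lower, with a median log2 fold change of 0.09.

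In the cosubstrate list 0 of 14 passed (median 0.04), and the closest was GSR, which regenerates glutathione, at 160 ± 1.15 against 178.5 ± 7.52 CPM (adjusted p 0.106 in edgeR; 0.0147 in DESeq2). UGDH, which makes UDP-glucuronate, was at 178 ± 5.65 against 191 ± 9.22 CPM. MGST1, a microsomal glutathione transferase from the list of other conjugating enzymes (0 of 12 passed, median 0.05), was at 296 ± 16.7 against 330.2 ± 16.5 CPM with overlap (adjusted p 0.164 in edgeR; 0.029 in DESeq2). None of 20 nuclear receptors and regulators passed (median -0.03). An unadjusted p under 0.05 in edgeR was reached by 4 of them, against 11.5% of all tested genes. The same held for 5 of 18 genes in the list with ALDH1A1, and for 1 or 2 in each other list. Of the 20 regulators the closest was NR1H4, the bile acid receptor, at 62.5 ± 1.90 against 73.0 ± 1.52 CPM. Its adjusted p was 0.0512 in edgeR, and it was named after its values were seen. HNF4A, a master regulator of hepatocyte genes, was at 318 ± 2.97 against 333 ± 10.9 CPM, and NFE2L2, which drives antioxidant genes including GSTs, at 364 ± 11 against 353 ± 4.16 CPM. None of 10 electron donors (median 0.04), 12 heme enzymes (median 0.06) and 14 transporters (median 0.11) passed; ABCC2, the exporter of conjugates into bile, was at 113 ± 6.23 against 122 ± 3.23 CPM without overlap.

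Members differed in the base composition of the 250 bases before their start. The 22 members that averaged 5 CPM or more and had a RefSeq promoter entry held a median of 13.8 CpG pairs and 59.7% GC. The 17 tested members under 5 CPM had a median of 2.0 CpG pairs and 38.8% GC, and the 37 untested members 2.5 CpG pairs and 52.4% GC. Over 27305 genes with an entry the medians were 11 CpG pairs and 58.0% GC. These took the first entry of each gene, whereas a member with several entries was given their mean. The ranges overlapped widely, from 0 to 29 CpG pairs in the most expressed class and from 0 to 27 in the untested class. The classes also differed in family. Most of the 17 tested members under 5 CPM were UGT genes, while the only UGT in the most expressed class was UGT2B11 (31.2% GC, 1 CpG pair). Level and family are therefore mixed in this comparison. In all, 76 of the 101 members had an entry, and no test was made.

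**Figure D5:**
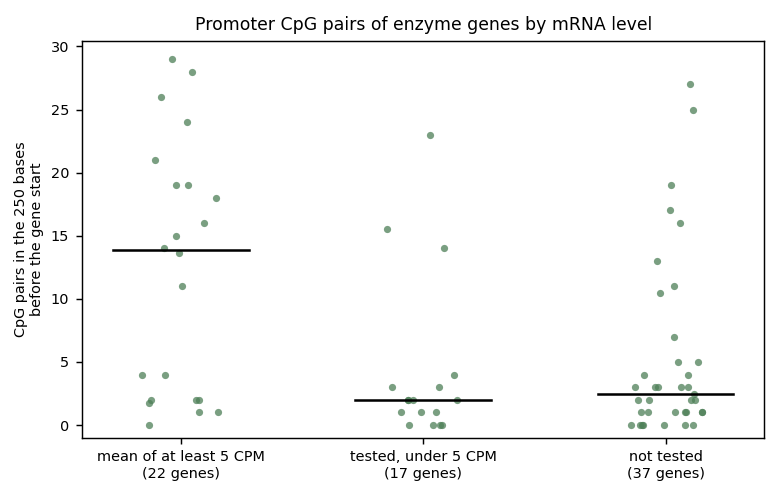
CpG pairs in the 250 bases before the gene start for enzyme genes with a RefSeq promoter entry, split by mRNA level, with points for genes and lines for medians. The most expressed class has a median of 13.8 and the other classes 2.0 and 2.5, with overlapping ranges. Most genes tested under 5 CPM are UGTs, so level and family are mixed.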

How the data were processed

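The authors deposited a table of estimated counts per gene symbol for 6 libraries, given as whole numbers. Per the submitters' processing notes, STAR, RSEM and limma were named as tools and hg19 and hg38 as builds, with no role given; annotation and strand setting were not given in the sources used. Per the labels' protocols, RNAzol was used for total RNA and the KAPA RNA HyperPrep kit for the libraries.

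Genes were kept by filterByExpr (minimum count 10, minimum total 15), scaled by TMM and tested with edgeR 4.0.16 (glmQLFit and glmQLFTest) in R 4.3.3, without covariates, with Benjamini-Hochberg adjustment over all tested genes and a threshold of 0.05. Each SE is the size of the log2 fold change divided by the root of the F statistic. CPM values are TMM-scaled. The code was tested on simulated data. Transcript lengths, shared 75-base words and the UGT1A exon came from GENCODE v29 (GRCh38), and promoters from RefSeq (GRCh38.p14). They need not match the authors' annotation. DESeq2 1.42.0, limma-voom 3.58.1, other scalings and filters, a replicate block, trend removal (mgcv 1.9.3) and leaving out each library were alternatives.

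Members, gene lists and tests were chosen with earlier results of these data known. Named members were up to 4 per role with the highest mean CPM, the 8 with the smallest p, and near-identical copies of these; members named for their non-overlapping groups or low counts were added after their values were seen. From each other list, genes past the threshold (up to 3) or else the 2 with the highest mean CPM were named. 1 list entry was found under an older symbol. A marker gene of HEK293T is not reported here.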

Additional observations from a re-analysis of the deposited data

How the results depend on the processing

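No member passed under any setting tried except 2. Without a filter on low counts 1 did in edgeR (GSTP1, adjusted p 0.0149). With DESeq2 2 did (GSTP1, adjusted p 0.0133, and SULT1C4, 0.0201), and many less abundant members had no adjusted p there. Of all genes, 264 passed without a filter, 249 with DESeq2 and 48 with the abundance trend removed, against 88, and 416 passed with the GC and length trend removed, a setting added after seeing the data. With library size scaling 32 genes were higher and 54 lower. Leaving out single libraries gave 25 to 100 genes, 0 members and a members' median log2 fold change of 0.005 to 0.084; the other settings gave a median of 0.057 to 0.114. The cause of these shifts was not tested. The replicate numbers do not pair the libraries (correlations of same-numbered libraries -0.0486, 0.0284 and 0.0633); with a replicate block 32 genes and 0 members passed, the members' median was 0.074, and ALDH1A1 did not pass (0.0695).

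Over 46 named genes and 16 settings, 36 genes kept their direction throughout. Reversed log2 fold changes were UGT2A3 with the abundance trend removed (0.037) and ALAS1 with library size scaling (-0.011), ABCC1 with the GC and length trend removed (0.003), and 9 genes with a library left out. Their lowest and highest values over the libraries left out were -0.159 and 0.197 for UGT2A3, -0.098 and 0.495 for UGT2B7, -0.002 and 0.103 for GSTK1, -0.152 and 0.097 for CYP39A1, -0.069 and 0.272 for SULT1A1, -0.01 and 0.146 for UGT2B4, -0.02 and 0.118 for CYP26B1, -0.133 and 0.016 for CYP2J2, and -0.027 and 0.007 for ABCC1. Depth limits members under 2 CPM most.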

Other observations

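The symbols left out of the enzyme set held few reads. Of 76 pseudogene symbols 33 were at 0 in every library and 6 were tested, and of 3 antisense genes 1 was tested; none passed edgeR's test. CYP2G1P had 38, 26 and 17 counts in FLAG and 9, 17 and 6 in VPS72, a log2 fold change of -1.44 ± 0.48 (SE) with an adjusted p of 0.228 in edgeR; a library of each group had 17 counts. CYP2G1P was named after its values were seen, as the left-out gene with the smallest p.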
